A study of Drosophila melanogaster with 48 samples.

Results

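The 38 genes described here encode the precursors of peptide hormones and neuropeptides of Drosophila melanogaster. They were listed by name as known neuropeptide genes, and each was matched by its symbol to 1 of the 17869 genes in the count tables. The study asked how a mild head injury in early adulthood changes the brain in males and in females that differ in mating state. RNA was sequenced from dissected brains of wildtype males (M), females mated with wildtype males (F), virgin females (V) and females mated with SP0 males (SP), which lack the seminal fluid protein sex peptide. Flies of each kind received head impacts on day 3 after eclosion (D3Inj) or were handled as sham, and brains were collected on day 4, 1 day after injury, or on day 45, 6 weeks after it. This gave 16 groups of 3 libraries, 48 in all, and each library was made from a pool of brains of 1 of 3 separate cohorts.

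Neuropeptides are cut from larger precursor proteins, packed into dense core vesicles and released to act mostly through G protein-coupled receptors on other neurons or on distant organs. In the fly brain most of these genes are transcribed in small and stereotyped sets of cells, such as the clock neurons that make Pdf, and they are known for roles in sleep, feeding, mating, stress and water balance. Whole brains were sequenced here, so fewer cells that make a peptide and less RNA per such cell cannot be told apart.

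The libraries held 21495740 to 60637359 counts, with a median of 35543946. Levels are given as CPM (a library's counts divided by its total and set to a common scale) after scaling by the trimmed mean of M values (TMM). Groups were taken from the header of each count column, which differed from the sample record for 47 of the 48 tables. By the headers, the dosage compensation RNA roX1 lay at 5520 to 6320 CPM in every male library and at most at 56.7 CPM in every female library, and 0 libraries went against their sex. No gene checks which libraries are D3Inj. In 4 libraries of day 4 the summed level of 17 gut genes was 1560 to 1890 CPM against at most 94.1 CPM in the other libraries of that day. These were sham virgin replicates 2 and 3, sham wildtype-mated replicate 3 and D3Inj male replicate 3, and calls that ended without them are given with the value in that setting. The summed level of 4 Hox genes of the ventral nerve cord was at most 2.7 CPM, and that of 5 neuronal genes was 6780 to 10600 CPM.

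The precursors spanned about 3 orders of magnitude in level. Per kilobase of annotated exon, the highest in sham brains on day 4 were Ms (myosuppressin, which inhibits muscle contraction) at 148 ± 7.31 CPM per kb (SD, n = 12), AstC (the somatostatin-like allatostatin C) at 133 ± 11.4 and sNPF (short neuropeptide F, which promotes feeding) at 129 ± 7.17. The spreads of these 3 neighbours in the order overlapped. Nplp2 followed at 120 ± 41.8, then Dh31 at 101, Dsk at 97.4, Nplp1 at 94.8 and Pdf at 93.7 CPM per kb. In all, 24 of the 38 precursors had a mean of at least 10 CPM in sham brains on both days. At the low end, Nplp4 lay at 0.186 and the metamorphosis hormone gene Ptth at 0.516 CPM per kb. The median coefficient of variation among the 3 libraries of a group was 7.46% over the precursors, against 12.2% over all features. Akh and Nplp2 were among the exceptions, with a median of 63.6% for Akh and of 26.7% for Nplp2. Nplp2 ran in the order of the summed level of 7 fat body genes in some groups and not in others. In sham SP0-mated females of day 45 it was at 120, 66.1 and 37 CPM, beside fat body sums of 5280, 3900 and 3230 CPM. On day 4 the values were 86.9, 68.2 and 67.9 CPM, beside 3640, 3670 and 3620 CPM. The part of fat body RNA in Nplp2 was not tested.

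Of the 38 genes, 35 passed the filter on low counts when all 48 libraries were fitted and 34 passed it on day 4. The exception on day 4 was Nplp4. Burs, a subunit of the cuticle-tanning hormone bursicon, never exceeded 10 counts and was at 0 in 21 libraries. ETH, the ecdysis-triggering hormone gene, and Lk, the gene of the diuretic peptide leucokinin, had 0 counts in all 48 libraries, where a count of 0 allows up to 3 counts, or 0.0859 CPM at the median depth. Annotated exons on the opposite strand cover 90.5% of the exon bases of ETH and 93.0% of those of Lk. Of the 119 protein-coding genes covered by more than 90% in this way, 95 (79.8%) were at 0 in every library, against 452 of 10047 (4.5%) with no base covered. The strand setting of the counting is not given in the sources used here, so the 0 counts of ETH and Lk say nothing of their expression. Smaller stretches of SIFa (21.1%), ITP (6.32%), CCAP (6.24%), amn (3.54%) and Ptth (2.13%) are also covered, and reads from these stretches may be missing from their counts.

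By number of calls, age was the comparison in which these genes moved most. In sham brains, averaged over the 4 kinds of fly, 21 of the 35 tested precursors rose from day 4 to day 45 and 6 fell (edgeR quasi-likelihood test, Benjamini-Hochberg adjusted p under 0.05 over all features). Over all 15640 features tested, 54.4% were called in this comparison, 28.6% higher and 25.9% lower. The median log2 fold change of the precursors was 0.34, against 0.00 over all features. In D3Inj brains 24 rose and 6 fell, where 55.4% of all features were called, 28.3% higher and 27.1% lower, and the median was 0.39 against -0.01. The summed level of the 38 genes was 1980 to 2270 CPM in the 12 sham libraries of day 4 and 2490 to 2810 CPM in those of day 45. The corresponding ranges in D3Inj brains were 1980 to 2200 CPM and 2530 to 2740 CPM, so neither pair of ranges overlapped.

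**Figure D1:**
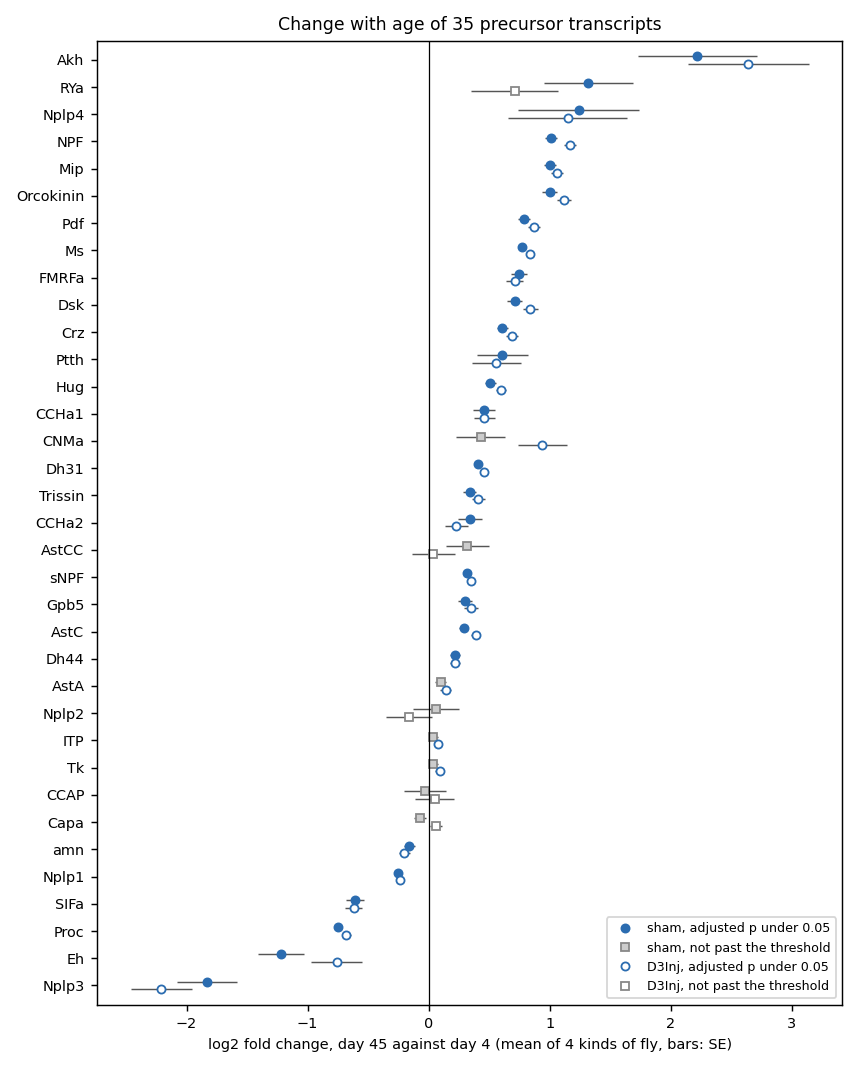
Log2 fold change of day 45 against day 4 for the 35 tested precursors, averaged over the 4 kinds of fly, for sham and D3Inj brains with the standard error as bars. Round points passed the adjusted p of 0.05 and square points did not; 20 precursors rose and 6 fell in both treatments.

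The same direction was called under both treatments for most members: 20 rose in both and 6 fell in both. RYa was called in sham brains alone. AstA, CNMa, ITP and Tk were called in D3Inj brains alone, and AstCC, CCAP, Capa and Nplp2 in neither. In D3Inj brains the calls of CCHa2 (0.23), ITP (0.08), Tk (0.09) and Nplp4 (1.15) were near the threshold, and all 4 ended without D3Inj male replicate 3 of day 4 or without the 4 libraries with gut RNA (edgeR adjusted p = 0.0651 to 0.0816 in the latter). They were not tied to those libraries. Of the 24 runs that left out 1 library, 17 ended the call of Nplp4 and 15 that of ITP. For CCHa2 it was 14 and for Tk 6. A call in 1 treatment and not in the other does not show that the changes differ, and that difference was not tested for age. Within the separate kinds of sham fly, the counts were 17 higher and 6 lower in males (33.4% of all features called), 12 and 5 in wildtype-mated females (28.2%), 15 and 5 in virgin females (28.6%) and 16 and 5 in SP0-mated females (27.9%). The precursors called higher in all 4 kinds were Crz, Dh31, Dsk, FMRFa, Hug, Mip, Ms, NPF, Orcokinin, Pdf and sNPF, 11 in all. Those called lower in all 4 kinds were Eh, Nplp1, Nplp3, Proc and SIFa, 5 in all. The share of all features called in all 4 kinds, or in both treatments, is not given here. These joint counts thus have no background beside them.

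Some of these calls within a kind rested on single libraries. In sham males, each of the 6 runs that left out 1 library called 19 to 20 precursors in place of 23. There the calls of amn and RYa each ended without any of 4 libraries. The call of Dh44 ended without either of 2, and those of CCHa1 and CCHa2 without 1. Nplp3 in sham males lost its call without replicate 2 or 3 of day 4 or without any of the 3 libraries of day 45 (as far as -1.02, edgeR adjusted p = 0.145), and in SP0-mated females without replicate 3 of day 45 (-1.45, edgeR adjusted p = 0.0712). Eh lost it in wildtype-mated females without replicate 1 or 2 of day 4 or replicate 2 or 3 of day 45 (as far as -0.65, edgeR adjusted p = 0.227). It also lost it in males without replicate 1 of day 4 or replicate 1 or 2 of day 45 (as far as -1.11, edgeR adjusted p = 0.0846), and in virgin females without replicate 2 of day 45 (-0.99, edgeR adjusted p = 0.0521). Of the genes called higher in all 4 kinds, FMRFa lost its call in males without replicate 2 of day 4 (0.28, edgeR adjusted p = 0.154), and Dsk in SP0-mated females without replicate 2 or 3 of day 4 or replicate 3 of day 45 (as far as 0.30, edgeR adjusted p = 0.0987). Without the 4 libraries with gut RNA, the calls in virgin females went from 15 higher and 5 lower to 11 and 3. The calls of AstC (from 0.29 to 0.21, edgeR adjusted p = 0.265), Gpb5 (from 0.36 to 0.44, edgeR adjusted p = 0.0774) and Tk (from 0.21 to 0.07, edgeR adjusted p = 0.718) ended there, beside those of Akh, Nplp3 and SIFa given with these genes.

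Among the abundant peptides of feeding and arousal, NPF, the fly relative of vertebrate neuropeptide Y, was at 21.3 to 38.9 CPM in the 12 sham libraries of day 4 (median 28.6) and at 49.6 to 68.5 CPM on day 45 (median 60.0). Every library of day 45 was above every library of day 4. Its log2 fold change was 1.01 (SE 0.048, edgeR adjusted p = 6.43e-21). Mip, which encodes the myoinhibitory peptides that also activate the sex peptide receptor, went from 46.9 to 62.0 CPM (median 54.6) to 80.2 to 130 CPM (median 118), again without overlap, a log2 fold change of 1.00 (SE 0.049, edgeR adjusted p = 1.31e-20). Orcokinin, whose peptides were first known as myotropic factors in crustaceans, lay at 24.6 to 40.4 CPM (median 29.6) and then at 56.5 to 71.2 CPM (median 61.3). Its groups did not overlap, and the log2 fold change was 1.00 (SE 0.060, edgeR adjusted p = 7.21e-18).

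Ms, the most abundant precursor per kilobase, was at 159 to 187 CPM in sham brains on day 4 (median 176) and at 273 to 320 CPM on day 45 (median 294), a log2 fold change of 0.77 with an SE of 0.031. Within each kind of sham fly it rose by a similar amount, from 0.69 in wildtype-mated females to 0.82 in SP0-mated females on the log2 scale. sNPF, at 281 to 342 CPM on day 4, was at 366 to 452 CPM on day 45 (log2 fold change 0.32). Dsk, the gene of the cholecystokinin-like drosulfakinins that signal satiety, went from 47.0 to 69.2 CPM to 65.6 to 117 CPM (0.71), where the ranges overlapped slightly. Hug, whose pyrokinin products link taste to feeding, went from 37.5 to 62.1 CPM to 55.6 to 75.2 CPM (0.51). All 4 genes passed the edgeR test in both treatments.

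Pdf, the output peptide of the ventral lateral clock neurons, was at 55.5 to 76.9 CPM in the sham libraries of day 4 (median 62.3) and at 92.7 to 155 CPM on day 45 (median 106), with no overlap and a log2 fold change of 0.79 (SE 0.049). Over both treatments the summed level of 6 clock genes was 1010 to 1490 CPM on day 4 and 914 to 1610 CPM on day 45. Pdp1, with medians of 932 and 798 CPM, made up most of that sum. In sham libraries tim was at 41.5 to 186 CPM on day 4 and at 44.1 to 329 CPM on day 45. The ranges of vri were 13.5 to 104 CPM and 32 to 228 CPM. With age in sham brains, vri (1.18) and cry (0.21) were called higher and Pdp1 (-0.27) lower. Libraries within a day thus also differed in clock gene level, and the part of this in the change of Pdf was not tested. Crz, the stress peptide corazonin, went from 24.4 to 31.3 CPM to 37.6 to 46.7 CPM (log2 fold change 0.61), and FMRFa, whose peptides modulate muscle and neurons, from 11.2 to 18.4 CPM to 20.9 to 31.3 CPM (0.75). Neither pair of ranges overlapped. Of the peptides named for their diuretic action, Dh31, related to calcitonin, rose by 0.41 and Dh44, related to corticotropin-releasing factor, by 0.22 on the log2 scale. AstC (0.29), Trissin (0.34), CCHa1 (0.46), CCHa2 (0.34) and Gpb5 (0.30) also rose, with overlapping ranges, and Ptth rose by 0.61 from a mean of 0.582 CPM. Without replicate 2 of the sham males on day 45, the change of Ptth was 0.44 and no longer passed (edgeR adjusted p = 0.0694). With the replicate number in the fit it was 0.42 and did not pass either (edgeR adjusted p = 0.29).

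**Figure D2:**
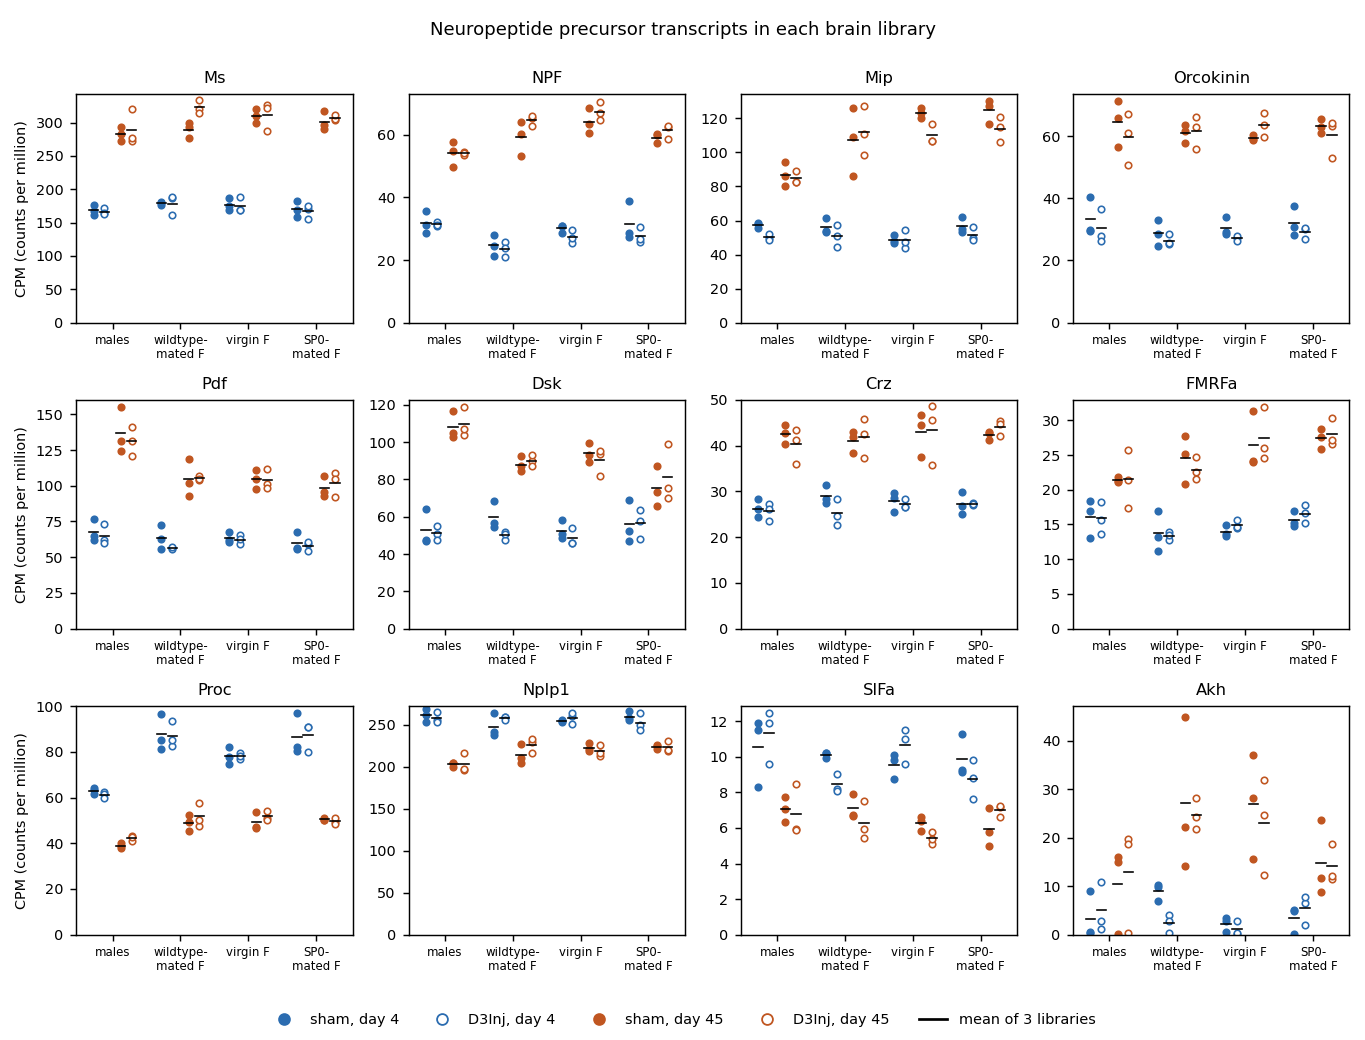
CPM of 12 precursors in each of the 48 libraries, by kind of fly, with filled points for sham, open points for D3Inj, blue for day 4, orange for day 45 and a bar at the mean of 3 libraries. Ms, NPF, Mip, Orcokinin, Pdf and Crz were higher in every library of day 45 than in every library of day 4, Proc and Nplp1 were lower on day 45 within each kind, and Akh varied from 0.123 to 45.0 CPM.

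Fewer precursors fell, and those that did included abundant ones. Proc, the gene of the muscle-stimulating peptide proctolin, was at 61.7 to 97.2 CPM in sham brains on day 4 (median 80.8) and at 37.7 to 53.8 CPM on day 45 (median 48.1), with no overlap and a log2 fold change of -0.75 (SE 0.035). Nplp1, a precursor found by peptidomics of the fly nervous system, went from 238 to 269 CPM (median 256) to 200 to 228 CPM (median 220), a log2 fold change of -0.25 with an SE of 0.021 and no overlap. SIFa, made in a few neurons of the pars intercerebralis and tied to courtship and sleep, went from 8.33 to 11.9 CPM to 4.98 to 7.93 CPM (-0.61, SE 0.072). The gene amn (amnesiac), needed for memory and sleep, fell by 0.16 on the log2 scale with overlapping ranges. With the replicate number in the fit its change was -0.13 and did not pass (edgeR adjusted p = 0.112).

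The largest changes belonged to genes at low or variable levels. Akh, the glucagon-like adipokinetic hormone made in the corpora cardiaca, a gland attached to the brain, was at 0.2 to 10.2 CPM in sham libraries of day 4 (median 4.17) and at 0.123 to 45.0 CPM on day 45 (median 15.9). The ranges overlapped. Replicate 3 of the males lay below the other libraries of its treatment on day 45, at 0.123 CPM in sham and at 0.356 CPM in D3Inj males, while the other 4 male libraries of that day were at 15.0 to 19.8 CPM. The log2 fold change of Akh was 2.22 (SE 0.49, edgeR adjusted p = 0.000152), and of the 4 kinds it passed in virgin females alone. Lst (limostatin), a second product of the corpora cardiaca, had a median of 3.45 CPM on day 4 and 8.78 CPM on day 45, and the part of the attached gland in the change of Akh was not tested.

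Eh, the eclosion hormone that triggers ecdysis, was at 1.27 to 10.9 CPM in sham libraries of day 4 (median 6.57) and at 0.530 to 5.33 CPM on day 45 (median 2.49), with overlap and a log2 fold change of -1.22 (SE 0.19, edgeR adjusted p = 5.13e-07). Nplp3 went from 0.665 to 3.85 CPM (median 0.948) to 0.117 to 0.726 CPM (median 0.335), with a log2 fold change of -1.83 (SE 0.25, edgeR adjusted p = 3e-08). The highest Nplp3 libraries of day 4, at 2.18 and 3.85 CPM, were the sham virgin replicates 2 and 3, which also held gut RNA. Without the 4 libraries with gut RNA the log2 fold change of Nplp3 was -1.50 over the 4 kinds and still passed, while in virgin females it went from -2.38 to -0.95 and no longer passed. Akh in virgin females went from 3.50 to 5.66 in the same setting and no longer passed (edgeR adjusted p = 0.0748), and neither did SIFa (from -0.62 to -0.49, edgeR adjusted p = 0.147), so that in this setting Nplp3 and SIFa were not called lower in all 4 kinds.

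RYa, whose peptides reduce feeding, was at 0.0293 to 0.581 CPM in sham libraries of day 4 (median 0.209) and at 0.267 to 0.826 CPM on day 45 (median 0.477), which overlapped. Its log2 fold change was 1.32 (SE 0.37, edgeR adjusted p = 0.00237), from at most 46 counts in a library. With the replicate number in the fit it was 0.97 and did not pass (edgeR adjusted p = 0.128). Nplp4, with at most 37 counts in a library, was at 0 to 0.291 CPM (median 0.0781) and then at 0 to 0.475 CPM (median 0.155). Its log2 fold change was 1.24 (SE 0.50, edgeR adjusted p = 0.0321). Without the 4 libraries with gut RNA the change of Nplp4 was 0.96 and did not pass (edgeR adjusted p = 0.184), nor did it pass when any of 8 single libraries was left out.

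Several precursors did not pass in sham brains: AstA had a log2 fold change of 0.10, Tk (tachykinin) of 0.04, ITP (ion transport peptide) of 0.04, Capa of -0.07 and CCAP (crustacean cardioactive peptide) of -0.03. Their standard errors were at most 0.050, except 0.17 for CCAP. Nplp2 spread over 34.7 to 125 CPM within sham libraries of day 4, and its value of 0.06 had an SE of 0.19.

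The genes on either side of the peptides moved in both directions. Of 38 peptide receptor genes, 11 rose and 14 fell with age in sham brains, with a median log2 fold change of -0.08. MsR1 (-0.33, SE 0.033) and MsR2 (-0.35, SE 0.047), the myosuppressin receptors, NPFR (-0.22, SE 0.047) and Pdfr (-0.24, SE 0.028) fell, while their ligand genes rose. SIFaR rose by 0.60 (SE 0.032) while SIFa fell, and CrzR rose by 0.38 (SE 0.042) along with Crz. SPR, the sex peptide receptor that also binds the Mip peptides, rose by 0.28 (SE 0.066). These pairs are examples, and ligand and receptor changes were not compared as a set. Over both treatments, medians of receptors of other rising ligands moved both ways from day 4 to day 45. They went from 101 to 111 CPM for sNPF-R, from 54.2 to 68.7 CPM for Dh44-R2 and from 46 to 42.5 CPM for Dh44-R1. For AstC-R2 they went from 48.7 to 34.9 CPM and for FMRFaR from 28.2 to 23.4 CPM. Of 16 genes for processing, release and breakdown of peptides, 8 rose and 5 fell, with a median of 0.02. The prohormone convertase amon rose by 0.11 (SE 0.017) and the amidating enzyme gene Phm by 0.07 (SE 0.026). Among the others that passed, dimm, a transcription factor of peptidergic cells, rose by 0.45 (SE 0.084), Cadps, needed for release of dense core vesicles, had a change of -0.39 (SE 0.026), and the peptidases Nep1 and Nep5 had changes of 0.44 (SE 0.031) and -0.62 (SE 0.11). Markers of whole cell classes moved as well. All 5 neuronal marker genes were lower on day 45, from -0.11 for elav to -0.62 for Syt1, and their summed level was 9120 to 10600 CPM on day 4 and 6780 to 7860 CPM on day 45. Of 6 glial genes 3 rose and 3 fell, and their summed level was 1500 to 1850 CPM on day 4 and 965 to 1290 CPM on day 45. Of the 6 tested fat body genes 4 rose, among them Lsp1beta by 2.84 and apolpp by 0.38 on the log2 scale, while 3 hemocyte genes rose and 3 fell of 8. The part of these cell classes in the changes of the precursors was not tested.

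The next comparison was between the sexes at the same age. On day 4, 4 of 34 precursors differed between sham males and the mean of the 3 kinds of sham female (1 higher and 3 lower in males), where 9.43% of all features were called, 5.04% higher and 4.38% lower. The same 4 genes were called in D3Inj brains (10% of all features, 5.3% higher and 4.7% lower). On day 45 there were 12 of 35 in sham brains, 5 higher and 7 lower (9.28% of all features, 4.3% higher and 4.97% lower). In D3Inj brains there were 11, 4 higher and 7 lower (8.21%, 3.13% higher and 5.08% lower), and those 11 were all among the 12. Eh, ITP and Proc were lower in males in all 4 comparisons, and 0 members were higher in males in all 4. The median log2 fold change of the precursors was between -0.095 and -0.016 in these comparisons and that of all features between -0.001 and 0.015. Genes of hemocytes, the blood cells, also differed: 6 of 8 were lower in sham males on day 4 and 5 of 8 on day 45, with a summed level of 595 to 685 CPM in sham males against 877 to 1150 CPM in sham females on day 4. The glial genes alrm, wrapper and moody were higher in males in all 4 comparisons, and the summed glial level on day 4 was 1730 to 1850 CPM in sham males against 1500 to 1670 CPM in sham females. Of the fat body genes, apolpp, Apoltp and fit were lower and Lsp2 and Lsp1beta higher in sham males on day 4, where the summed level was 2310 to 2860 CPM in males against 3020 to 5250 CPM in females. Lst of the corpora cardiaca was lower in sham males on day 4 (-1.58). The part of these cell classes in the sex differences of the precursors was not tested.

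**Figure D3:**
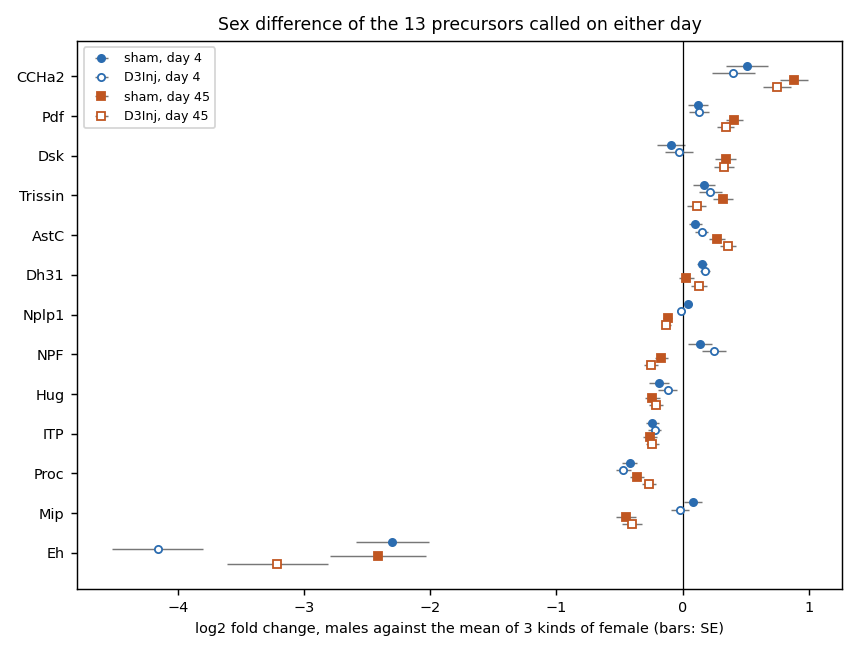
Log2 fold change of males against the mean of the 3 kinds of female for the 13 precursors called on either day, in sham and D3Inj brains, with the standard error as bars. Eh lay between -2.30 and -4.16 in the 4 comparisons, and CCHa2, Pdf, Dsk and AstC were called higher in males on day 45 in both treatments.

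Eh showed the largest sex difference. In sham males of day 4 it was at 1.93, 1.27 and 1.36 CPM, while the 9 sham female libraries were at 4.96 to 10.9 CPM (median 7.00). In D3Inj males it was at 0.150, 0.279 and 0.698 CPM, against 2.63 to 9.42 CPM in females (median 5.77). Every male library was below every female library, and the log2 fold changes were -2.30 in sham (SE 0.29, edgeR adjusted p = 7.25e-06) and -4.16 in D3Inj brains (SE 0.36, edgeR adjusted p = 3.42e-08). On day 45 sham males were at 0.610, 0.530 and 0.737 CPM and D3Inj males at 0.367, 0.286 and 0.379 CPM, again below all females of their treatment (1.00 to 5.33 and 1.63 to 5.64 CPM). The log2 fold changes were -2.41 (SE 0.38) and -3.21 (SE 0.40).

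Proc was lower in males on both days. Sham males of day 4 were at 61.7, 63.2 and 64.0 CPM and sham females at 74.8 to 97.2 CPM (median 82.1), a log2 fold change of -0.42 (SE 0.059, edgeR adjusted p = 2.57e-05). On day 45 sham males were at 40.0, 38.6 and 37.7 CPM and sham females at 45.5 to 53.8 CPM (median 50.1), a log2 fold change of -0.36 (SE 0.057, edgeR adjusted p = 0.00011). Males and females did not overlap on either day, and the same held in D3Inj brains, with log2 fold changes of -0.47 on day 4 and -0.27 on day 45. The receptor gene Proc-R was higher in males in the same 4 comparisons, by 0.20 to 0.35 on the log2 scale.

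ITP, whose product acts on water retention and feeding, was at 150, 138 and 138 CPM in sham males of day 4 and at 150 to 178 CPM in sham females (log2 fold change -0.24, SE 0.052, edgeR adjusted p = 0.00342). On day 45 the values were 146, 147 and 141 CPM in sham males and 155 to 189 CPM in sham females (-0.26, SE 0.055, edgeR adjusted p = 0.00233). The male and female ranges met at 150 CPM on day 4 and were apart on day 45. In D3Inj brains of day 4 the call of ITP ended without male replicate 2 (-0.20, edgeR adjusted p = 0.0507). Dh31 was called higher in males on day 4 alone, at 144, 137 and 143 CPM in sham males and at most 135 CPM in sham females (0.15, SE 0.039, edgeR adjusted p = 0.0139). That call for Dh31 ended without the 4 libraries with gut RNA (0.14, edgeR adjusted p = 0.0779) and without sham male replicate 1 (0.13, edgeR adjusted p = 0.106) or 3 (0.14, edgeR adjusted p = 0.0754) of day 4, while the call in D3Inj brains kept its side of the threshold in the gut setting. The sham call of Dh31 also ended against wildtype-mated females alone (0.14, edgeR adjusted p = 0.0906).

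CCHa2, a nutrient signal that acts on insulin-producing cells, led the genes that were higher in aged males. Sham males of day 45 were at 34.3, 34.8 and 32.6 CPM and sham females at 14.8 to 25.1 CPM (median 18.0), with a log2 fold change of 0.88 (SE 0.11, edgeR adjusted p = 7.01e-06). D3Inj males were at 33.1, 27.9 and 28.8 CPM against 14.0 to 21.0 CPM in females, 0.75 (SE 0.11). No male library overlapped the female range on day 45. On day 4 the sham males, at 16.3, 25.9 and 24.6 CPM, overlapped the females at 11.7 to 24.9 CPM, and the test did not pass. It passed there with all 48 libraries in the fit (0.52, edgeR adjusted p = 0.0262) and with the replicate number as a block (0.51, edgeR adjusted p = 0.039). It also passed without sham male replicate 1 (0.69, edgeR adjusted p = 0.0279) or sham wildtype-mated replicate 2 (0.62, edgeR adjusted p = 0.0125). CCHa2 did not pass the test of sex by age given below. CCHa2 is also made in the gut, and on day 45 5 of the 7 tested gut genes were higher in sham males, whose summed gut level in replicates 1, 2 and 3 was 56.0, 194 and 26.9 CPM against at most 15.5 CPM in sham females. In D3Inj brains of day 45 2 of the 7 were higher, and the males were at 29.3 to 37.1 CPM. The part of gut RNA in the CCHa2 difference was not tested beyond this.

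Pdf was at 155, 131 and 124 CPM in sham males of day 45 and at 92.7 to 119 CPM in sham females (median 102), with a log2 fold change of 0.41 (SE 0.070, edgeR adjusted p = 0.000251) and no overlap. D3Inj males were at 141, 131 and 121 CPM against 92.0 to 112 CPM in females (0.34, SE 0.070). Dsk was at 117, 103 and 105 CPM in sham males and at 65.6 to 99.7 CPM in sham females (0.34, SE 0.080, edgeR adjusted p = 0.0066), and it lost the call in sham brains without male replicate 1 (0.28, edgeR adjusted p = 0.0904) and in D3Inj brains without male replicate 3 (0.27, edgeR adjusted p = 0.0948). In AstC the sham males at 228, 201 and 246 CPM overlapped the females at 174 to 209 CPM (0.27, SE 0.064), and the call ended without male replicate 1 (0.26, edgeR adjusted p = 0.0501) or 3 (0.20, edgeR adjusted p = 0.121). Trissin was called in sham brains alone, at 39.7, 36.0 and 43.4 CPM in males against 27.5 to 35.8 CPM in females (0.32, SE 0.077, edgeR adjusted p = 0.00842), and lost the call without male replicate 3 (0.25, edgeR adjusted p = 0.0985). Without sham male replicate 3 of day 45, 7 precursors were called in sham brains in place of 12. Against wildtype-mated females alone, the sham calls of Dsk (0.29, edgeR adjusted p = 0.107) and AstC (0.27, edgeR adjusted p = 0.0518) ended. So did those of Trissin in sham (0.28, edgeR adjusted p = 0.116) and of Dsk in D3Inj brains (0.28, edgeR adjusted p = 0.121).

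**Figure D4:**
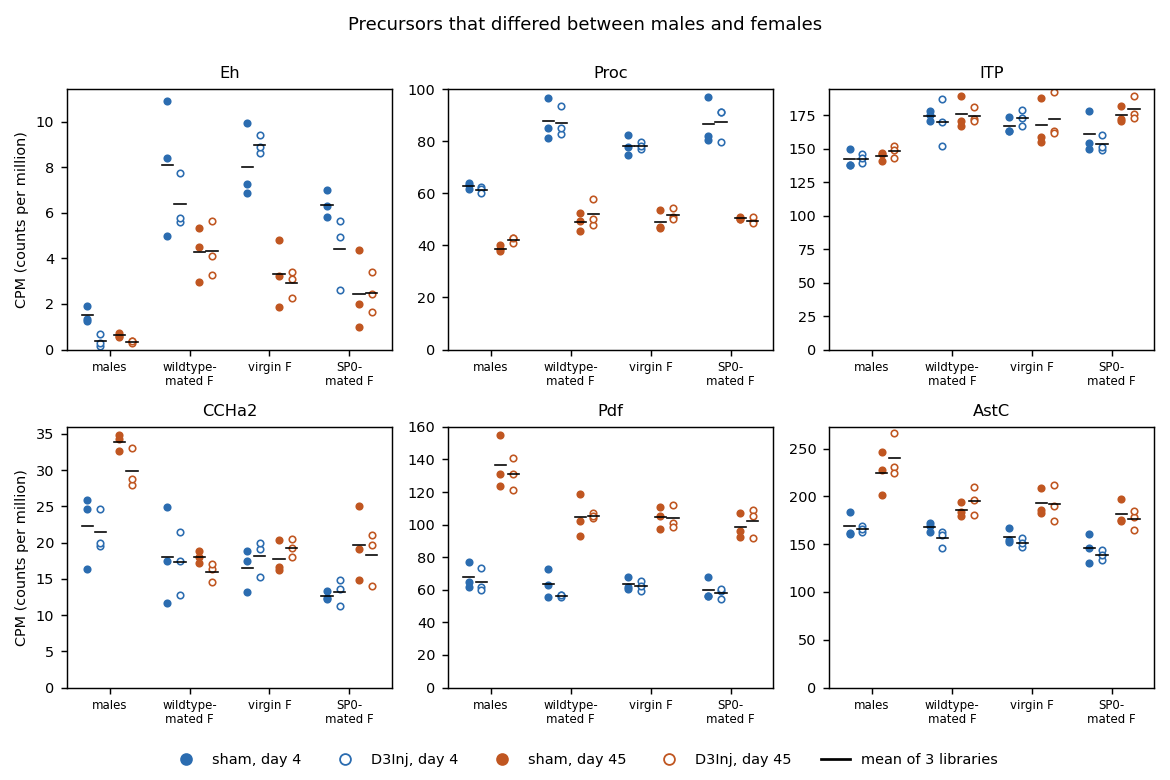
CPM of Eh, Proc, ITP, CCHa2, Pdf and AstC in each library by kind of fly, with filled points for sham, open points for D3Inj, blue for day 4, orange for day 45 and a bar at the mean of 3 libraries. Male Eh was at most 1.93 CPM, below every female library of the same day and treatment, and male CCHa2 on day 45 was at least 27.9 CPM against at most 25.1 CPM in females.

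Of the genes lower in aged males, Mip was at 86.4, 80.2 and 94.4 CPM in sham males of day 45 and at 86.4 to 130 CPM in sham females (median 123), a log2 fold change of -0.45 (SE 0.081, edgeR adjusted p = 0.000506). The overlap came from wildtype-mated females, at 126, 86.4 and 109 CPM. Against wildtype-mated females alone the call of Mip in sham brains ended (-0.31, edgeR adjusted p = 0.0744). Virgin females were at 126, 120 and 123 CPM and SP0-mated females at 117, 127 and 130 CPM, all above the males. In D3Inj brains the males at 82.8, 82.5 and 89.1 CPM were below all females, at 98.4 to 127 CPM (-0.40, SE 0.080). Hug (-0.24), NPF (-0.17) and Nplp1 (-0.12) were called lower in males by smaller amounts in sham brains on day 45, with overlapping ranges. The call of Hug in sham brains ended without male replicate 3 (-0.20, edgeR adjusted p = 0.0852) and against wildtype-mated females alone (-0.12, edgeR adjusted p = 0.447), and in D3Inj brains without any of the 3 male libraries (as far as -0.20, edgeR adjusted p = 0.115). The calls of NPF and Nplp1 ended when any of several single libraries was left out, for NPF as far as -0.11 (edgeR adjusted p = 0.318) without sham male replicate 2 and for Nplp1 as far as -0.12 (edgeR adjusted p = 0.136) without replicate 3. Against wildtype-mated females alone, the sham calls of NPF (-0.14, edgeR adjusted p = 0.303) and Nplp1 (-0.08, edgeR adjusted p = 0.438) ended. The D3Inj call of Hug ended there too (-0.15, edgeR adjusted p = 0.308).

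Whether a sex difference changed with age was tested directly as the interaction in sham brains, where 0.467% of all features were called, 0.166% higher and 0.301% lower. Mip was the 1 precursor of 35 that passed. On day 4 its males, at 55.5, 57.7 and 58.3 CPM, lay inside the female range of 46.9 to 62.0 CPM, and from there Mip rose by 0.60 (SE 0.097) in males, 0.93 (SE 0.098) in wildtype-mated females, 1.33 (SE 0.099) in virgin females and 1.13 (SE 0.098) in SP0-mated females on the log2 scale. The rise in males was smaller than the mean rise in females by a log2 difference of -0.53 (SE 0.11, edgeR adjusted p = 0.0144), and smaller than in each of the 3 kinds. Leaving out any of 4 male libraries moved the adjusted p above the threshold, as far as 0.114 without sham male replicate 2 of day 45, where the difference was -0.47. The other precursors with an unadjusted p under 0.05, Dsk (0.42), Pdf (0.29), NPF (-0.32), FMRFa (-0.45) and Nplp1 (-0.16), had edgeR adjusted p values of 0.158 to 0.359. Thus the larger male level of Pdf on day 45 was not shown to arise with age.

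Mating state was compared within females, averaged over sham and D3Inj. Of the precursors, 0 passed the edgeR test in any of the 6 comparisons, where 0% to 0.123% of all features were called. On day 4, 7 precursors had an unadjusted p under 0.05 for wildtype-mated against virgin females (0.123% of all features called, 0.0957% higher and 0.0273% lower), 10 for SP0-mated against virgin females (0%) and 8 for wildtype-mated against SP0-mated females (0.103%, 0.082% higher and 0.0205% lower). On day 45 these numbers were 3 (0%), 3 (0.0262%, 0.0196% higher and 0.00654% lower) and 7 (0.0393%, 0.0262% higher and 0.0131% lower). The shares in brackets are of features called at the adjusted p, a stricter threshold. The share of all features with an unadjusted p under 0.05 is not given here. These unadjusted counts thus have no background beside them. DESeq2 called 0 precursors in 4 of the 6 comparisons, 1 for SP0-mated against virgin females of day 4 (Eh, log2 fold change -0.68) and 2 for wildtype-mated against SP0-mated females of day 4 (AstC and NPF).

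The nearest to the threshold was AstC on day 4, at 146 to 172 CPM in the 6 libraries of wildtype-mated females and at 130 to 161 CPM in those of SP0-mated females, a log2 fold change of 0.18 (SE 0.045, edgeR adjusted p = 0.0921). NPF was at 21.1 to 28.0 CPM against 25.8 to 38.9 CPM in the same comparison (-0.30, SE 0.083, edgeR adjusted p = 0.139), and CCHa2 at 11.7 to 24.9 CPM against 11.2 to 14.8 CPM (0.45, SE 0.16, edgeR adjusted p = 0.215). All 3 pairs of ranges overlapped. For SP0-mated against virgin females of day 4 the smallest p values were those of Nplp3 (-1.13, SE 0.31, edgeR adjusted p = 0.208) and Eh (-0.68, SE 0.20, edgeR adjusted p = 0.247). Proc had a log2 fold change against virgin females of 0.16 (SE 0.049) in wildtype-mated and of 0.16 (SE 0.049) in SP0-mated females of that day. Its edgeR adjusted p values were 0.424 and 0.256, and these comparisons share the virgin libraries. NPF (-0.25) and Capa (0.15) followed Proc for wildtype-mated against virgin females.

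On day 45, Capa was at 38.4 to 43.1 CPM in wildtype-mated and at 32.4 to 35.8 CPM in SP0-mated females, without overlap, but the log2 fold change of 0.25 (SE 0.081) had an edgeR adjusted p of 0.429. Hug (-0.16) and Eh (0.78) were the other genes with the smallest p in that comparison, Nplp3, Capa (0.20) and Hug (-0.10) for wildtype-mated against virgin females, and Dsk (-0.23), NPF (-0.13) and CNMa (-0.63) for SP0-mated against virgin females. For the 24 precursors with a mean of at least 10 CPM, the median size of the log2 fold change was 0.051 to 0.081 over the 6 comparisons, beside a median SE of 0.06 to 0.0625.

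Head injury gave 0 called precursors in the edgeR test in each of the 4 kinds of fly on day 4 and day 45, and 0 for the mean over the kinds, 10 comparisons in all. Over all features 0% to 0.0547% were called. Which tables of day 4 are sham and which D3Inj, above all in wildtype-mated females, rests on the column headers alone and could not be checked, so these values hold only if the headers are right. The study, which used DESeq2, reported its largest number of changed transcripts of that day in wildtype-mated females. In the edgeR test used here 0% of all features were called in that comparison. On day 4 the precursors with an unadjusted p under 0.05 numbered 4 in males, 4 in wildtype-mated females, 0 in virgin females, 1 in SP0-mated females and 4 for the mean (0.00683%, 0%, 0.0547%, 0.00683% and 0.0273% of all features called). On day 45 they numbered 1, 2, 0, 1 and 1, where 0% of all features were called in each comparison. The shares called are again at the adjusted p, so the unadjusted counts have no background beside them. DESeq2 called 1 precursor in males of day 4 and 1 for the mean of day 4, Eh in both, and 0 in the other 8 comparisons.

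Eh in males of day 4 came nearest to the threshold. The sham libraries were at 1.93, 1.27 and 1.36 CPM and the D3Inj libraries at 0.150, 0.279 and 0.698 CPM, without overlap. These levels rest on few counts, 52, 41 and 44 in the sham and 7, 9 and 22 in the D3Inj libraries. The log2 fold change was -2.09 (SE 0.42, unadjusted p = 5.6e-05, edgeR adjusted p = 0.375). Replicate 3 of the D3Inj males, the highest of the 3 at 0.698 CPM, was 1 of the 4 libraries with gut RNA. Without that library the log2 fold change was -2.87 (SE 0.47, edgeR adjusted p = 0.0287), and without all 4 it was -2.87 (SE 0.41, edgeR adjusted p = 0.0136). DESeq2 on all libraries gave -2.09 with an adjusted p of 0.000128. The call of Eh thus depended on the tool and on 1 library. In SP0-mated females of day 4 Eh was at 5.8, 7.00 and 6.28 CPM in sham and at 4.93, 5.62 and 2.63 CPM in D3Inj brains, also without overlap (-0.54, SE 0.29, edgeR adjusted p = 1.0), while in wildtype-mated and virgin females the ranges overlapped. For the mean over the kinds Eh had a log2 fold change of -0.70 (SE 0.16, edgeR adjusted p = 0.322), which passed without that D3Inj male library (-0.89, edgeR adjusted p = 0.0464) and without the 4 libraries with gut RNA (-1.03, edgeR adjusted p = 0.00928). On day 45 male Eh, at 0.530 to 0.737 CPM in sham and 0.286 to 0.379 CPM in D3Inj libraries, did not overlap and did not pass.

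**Figure D5:**
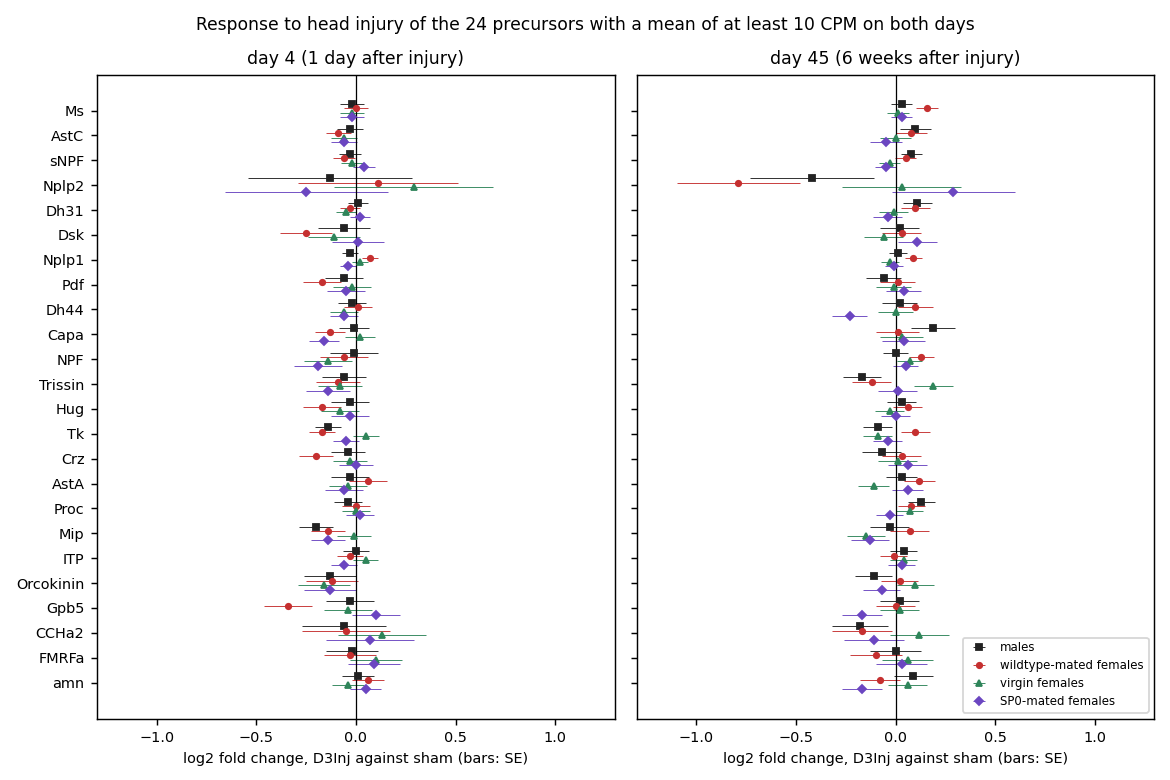
Log2 fold change of D3Inj against sham on day 4 and day 45 in each kind of fly, with the standard error as bars, for the 24 precursors with a mean of at least 10 CPM in sham brains on both days. Most points lie within 0.2 of 0, none passed the edgeR test, and the widest bars belong to Nplp2.

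The remaining genes with the smallest p values were small or imprecise changes. In males of day 4 these were CNMa (-1.07, from at most 1.61 CPM) and Mip, which was at 48.6 to 52.0 CPM in D3Inj and at 55.5 to 58.3 CPM in sham libraries (-0.20, SE 0.085). In wildtype-mated females of day 4 they were Gpb5 (-0.34, SE 0.12), Tk (-0.17, SE 0.067) and Crz (-0.20, SE 0.085), and on day 45 Ms, at 315 to 334 CPM in D3Inj and 277 to 299 CPM in sham libraries (0.16, SE 0.055), Nplp2 (-0.79, SE 0.31) and NPF (0.13, SE 0.065). In virgin females they were CNMa, AstCC and Orcokinin on day 4 and Trissin, Mip and Nplp4 on day 45. In SP0-mated females they were Capa, Eh and Mip on day 4 and Dh44 (-0.23, SE 0.089), amn and Gpb5 on day 45, and in males of day 45 Nplp3, Proc and Trissin. For the mean over the kinds Mip (-0.12, SE 0.043) and Tk (-0.08, SE 0.033) followed Eh on day 4, and Ms (0.06), NPF (0.06) and Proc (0.06) led on day 45. The edgeR adjusted p of each was at least 0.773. In wildtype-mated females of day 45 the summed fat body level was 3370 to 4340 CPM in D3Inj and 4370 to 5720 CPM in sham libraries. Its part in the value of Nplp2 was not tested. For the 24 precursors of at least 10 CPM the median size of the log2 fold change was 0.028 to 0.083 over the 10 comparisons, beside a median SE of 0.043 to 0.0885. Of the 38 receptor genes and the 16 genes for peptide processing, 0 passed for injury or mating state.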

How the data were processed

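RNA of pooled brains was sequenced in 48 libraries (16 groups of 3). The authors depleted ribosomal RNA, made stranded paired-end libraries, aligned them to dm6 (STAR, Ensembl gene models) and deposited featureCounts tables of raw counts, with no normalization, for 23932 features. The sources used here give no versions, strand setting or Ensembl release. Column headers gave the groups; headers that say young were read as D3Inj, which no gene can check. Symbols came from the Ensembl BDGP6 annotation, which matched 17790 of 17869 genes. The members, lists and rules were chosen with earlier results of these data known.

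In R 4.3.3, counts were fitted with edgeR 4.0.16 (TMM, filterByExpr with the groups, 1 coefficient per group, quasi-likelihood F test, all tests two-sided): the 24 libraries of a day for sex, mating and injury (14631 features on day 4 and 15286 on day 45), and all 48 for age (15640). Sex is males against the mean of the 3 kinds of female. The SE was obtained by dividing the absolute log2 change by the root of its F value. Calls required an adjusted p (Benjamini-Hochberg over all features) under 0.05. The common biological coefficient of variation was 0.136, 0.128 and 0.134. Limits from counts cover counting error alone. Full statistics were given to called members (the 8 largest where more were called) and, where 0 were called, the 3 smallest p values were named. Ranges of other members were shown after their values were seen. The code was tested on simulated data. Replicates within a group differed by more than counting noise (chi-square per degree of freedom 3.9 to 58.3), and are separate cohorts. Alternatives were RLE scaling, DESeq2 1.42.0, no filter, genes alone, the replicate number as a block, other sets of libraries, and each library left out.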

Additional observations from a re-analysis of the deposited data

Results flagged for a closer look

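The change of Mip with age differed between the sexes in sham brains: the rise in males was smaller than that in females by a log2 difference of -0.53, by a test of the interaction itself (edgeR adjusted p = 0.0144). It was smaller than in each of the 3 kinds of female, and 4 of the single male libraries, when left out, ended the call.

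The response of sNPF to injury on day 45 went opposite ways in males (log2 fold change 0.08, every D3Inj library above every sham library) and in SP0-mated females (-0.05, every D3Inj library at or below the sham range), a difference of 0.13. The difference was not tested, and neither response passed on its own. It was found by a search of all precursors, pairs of kinds and both days for ranges separated in opposite directions. How many such cases would arise by chance in that search was not tested. Groups held 3 libraries, too few to look for single outlying libraries.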

How the results depend on the processing

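Directions were the same in every alternative run for the 170 called changes and no call was reversed. With RLE scaling and with DESeq2 all 170 kept their call, without the filter 165 did, with genes alone 167 and without the 4 libraries with gut RNA 135 of 147. No scaling moved the median of all features by more than 0.1. Deviations of same-numbered libraries correlated over 0.1 in 23 of 84 pairs on day 4 (up to 0.594) and in 10 of 84 on day 45 (up to 0.173). For each pair the best match among the 3 libraries of the other group was looked up. It had the same number in 43 of 84 cases on day 4 and in 24 of 84 on day 45. Whether same-numbered libraries share a cohort was not tested. With the replicate number as a block, 153 of 170 calls passed. For age in the sham mean, the calls of amn, Nplp4 (0.27, edgeR adjusted p = 0.775), Ptth and RYa ended. For age in the D3Inj mean, those of AstA, ITP, Nplp4, Ptth and Tk ended. The rest were age calls within sham kinds. They were amn, FMRFa, Nplp3 and RYa in males, Eh and Trissin in wildtype-mated, Tk in virgin and Trissin in SP0-mated females. In this setting precursors called for the sex-by-age interaction went from 1 to 2 and for wildtype-mated against SP0-mated females of day 4 from 0 to 1. Counts that moved by more than 1.5 times were these. Against wildtype-mated females alone, 5 precursors in place of 12 were called for sex in sham brains of day 45. The calls that ended were those of AstC, Dsk, Hug, Mip, NPF, Nplp1 and Trissin. DESeq2 called 1 for SP0-mated against virgin and 2 for wildtype-mated against SP0-mated females of day 4, and 1 each for injury in males and in the mean of day 4. All 48 libraries in the fit gave 1 for wildtype-mated against SP0-mated females of day 4. Without the 4 libraries with gut RNA, injury gave 1 in males and 1 in the mean of day 4. The cause was not tested. Leaving out 1 library gave 0 to 1 calls for injury in males and for its mean on day 4 (1 without D3Inj male replicate 3), 0 to 2 for wildtype-mated against SP0-mated females of day 4 (not 0 without sham wildtype-mated replicate 1, D3Inj wildtype-mated replicate 2 or sham SP0-mated replicate 1), 0 to 1 for SP0-mated against virgin females of day 45 (Dsk, without D3Inj SP0-mated replicate 3), 0 to 1 for the interaction and 7 to 13 for sex in sham brains of day 45, and 2117 of 2250 single changes kept their call. Genes under about 1 CPM rest on few counts.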
